A study of Homo sapiens with 6 samples.

Results

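The replication-dependent H2B mRNAs of chromosome 6 encode histone H2B, 1 of the core proteins of the nucleosome. The mRNAs described here are those of 10 genes, H2BC3, H2BC4, H2BC5, H2BC7, H2BC8, H2BC11, H2BC12, H2BC13, H2BC14 and H2BC15, out of 19061 protein-coding genes with a MANE Select transcript in GENCODE release 44. MANE Select names the representative transcript of a gene. A cross-link position was counted for a member when it lay inside an exon of its MANE Select transcript on the same strand, whether or not the deposited table assigned that position to the gene. This gave 3257 of 1179243 positions in DoHH-2 and 769 of 78474 positions in GM01953.

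The positions come from eIF4B iCLIP, in which RNA is cross-linked to protein by UV light, the protein is immunoprecipitated, and each cDNA ends next to the cross-linked nucleotide. The study compared DoHH-2, a line of diffuse large B-cell lymphoma, with GM01953, a control B-cell line, to ask where eIF4B contacts RNA in each. The labels name no treatment or genotype change, and each group is a single cell line. By their labels, DoHH-2 has 4 replicates and GM01953 has 2, but the deposited tables hold 1 pooled value per position and cell line, so no SD and no test between the cell lines could be computed.

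Replication-dependent histone mRNAs are made in S phase together with new DNA. They carry no poly(A) tail and end instead shortly after a conserved stem–loop, which is bound by SLBP, the stem–loop binding protein that serves in processing, translation and stability. When DNA replication stops, these mRNAs are rapidly degraded in a pathway that uses the RNA helicase UPF1. eIF4B is a translation initiation factor best known for stimulating the helicase eIF4A on the 5′ UTR.

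The whole libraries held 2033156 cDNA counts in DoHH-2 and 167197 in GM01953, a depth ratio of 12.2. Of 7 B-cell marker mRNAs, 6 had counts in DoHH-2, where CD22 had 0, and 7 in GM01953, with sums of 1502 and 590 counts. As a share of the library, 6 of these 7 mRNAs were lower in DoHH-2, with counting intervals below 1, for example CD74 with a ratio of 0.233 (0.206 to 0.265). All 4 T-cell and all 3 myeloid marker mRNAs had 0 counts in both cell lines. For shares of counts, 95% Wilson intervals are given in parentheses, and for ratios of shares, exact conditional binomial intervals. Both cover counting error only and leave out the spread between replicates.

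The sequences around the position with the highest count of each mRNA in DoHH-2 are shown first, since they mark where eIF4B cross-linked most. Each is 30 nt of the GRCh38 reference read 5′ to 3′ on the transcribed strand, and the capital marks the cross-linked base.
H2BC3 (chr6:26043257-26043286, minus strand): ctctaaataagtgctTatgtaagcacttcc
H2BC4 (chr6:26123490-26123519, minus strand): tccaagtaagcgtctTaacacctaacccca
H2BC5 (chr6:26158555-26158584, plus strand): gccaagtaagcatctTtacacctaatccca
H2BC7 (chr6:26199935-26199964, plus strand): agtaattctaacgtcTtcatacccaatccc
H2BC8 (chr6:26216231-26216260, minus strand): gtgtgcttaggtgctTtaaaactcaaaggc
H2BC11 (chr6:27132359-27132388, minus strand): gtacaccagcgctaaGtaaacagtgagttg
H2BC12 (chr6:27146385-27146414, minus strand): tgccaagtaagcgtcTtaaagcccaacccc
H2BC13 (chr6:27807508-27807537, minus strand): agctccaagtaaattCtcaagctcttgtcc
H2BC14 (chr6:27815431-27815460, plus strand): cgctgcagtaacagtTccgccgtgacccac
H2BC15 (chr6:27839057-27839086, plus strand): gaacgttcggtcagtCtcggcccacacccc
In 9 of the 10 mRNAs this position lay after the stop codon, in the 3′ UTR and before the stem–loop. H2BC11 was the exception, with its highest position on the last base of the last sense codon, directly before the stop codon. The base was T in 7 mRNAs, C in 2 and G in 1, and in no mRNA was it A. Although the mRNAs encode nearly the same protein, the letters around these positions differ from mRNA to mRNA.

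The stem–loops that follow are nearly identical. The sequences listed in the study's supplement were searched in each mRNA, and each held exactly 1 of them. H2BC3, H2BC8, H2BC13, H2BC14 and H2BC15 carry the first form below, and H2BC4, H2BC5, H2BC7, H2BC11 and H2BC12 carry the second. Capitals mark the loop.
stem–loop with C, as in H2BC3 (chr6:26043232-26043247, minus strand): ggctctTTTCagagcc
stem–loop with A, as in H2BC4 (chr6:26123472-26123487, minus strand): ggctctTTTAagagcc
The first base of the stem–loop lay between 29 nt (H2BC13) and 50 nt (H2BC15) after the first base of the stop codon. In 9 mRNAs the annotated transcript ended 5 nt after the stem–loop, and in H2BC8 it ended 18 nt after it.

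The H2B mRNAs held 75194 counts in DoHH-2, or 3.70% (3.67 to 3.72) of the library, and 4435 counts in GM01953, or 2.65% (2.58 to 2.73). The ratio of the shares was 1.39 (1.35 to 1.44). When each position was counted once, whatever its count, the ratio was 0.282. That measure is capped by the 4831 H2B exon bases and is not matched for the 12.2-fold difference in depth. Even with all 4831 bases covered in DoHH-2 it would have stayed below 1, so it cannot show a direction. Counts covered 67.4% of the H2B exon bases in DoHH-2 and 15.9% in GM01953. Thinned to the depth of GM01953, the DoHH-2 counts are expected at 1532 H2B positions, against 769 observed in GM01953. The tables hold no measure of mRNA level, so more H2B mRNA and more eIF4B per mRNA cannot be told apart, nor can more cells in S phase and more mRNA per cell.

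H2BC5 held the most counts in both cell lines, with 14128 in DoHH-2 and 875 in GM01953. By counts it ranked 5 in DoHH-2 and 7 in GM01953 among the 19061 coding genes. The second was H2BC4 in DoHH-2, with 10038 counts, against 602 in GM01953. H2BC12 followed with 9678 counts in DoHH-2 and was second in GM01953 with 672. These 3 mRNAs and H2BC7, with 9142 and 539 counts, were the highest 4 in both cell lines.
H2BC11 held 7719 counts in DoHH-2 and 329 in GM01953. H2BC8 held 7212 and 291. H2BC14 held 6666 and 358. These middle mRNAs changed places between the cell lines, since H2BC13, with 5095 counts in DoHH-2, held 382 in GM01953, more than any of them.
H2BC3 held 4435 counts in DoHH-2 and 269 in GM01953. H2BC15 was the lowest in both, with 1081 and 118 counts. Per length, the counts in DoHH-2 ran from 1994 per kb for H2BC15 to 29070 per kb for H2BC5. In GM01953 they ran from 218 to 1800 per kb for the same mRNAs.

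As a share of the library, 9 of 10 H2B mRNAs were higher in DoHH-2, and in 8 the counting interval of the ratio lay above 1. Of the 7990 coding genes with at least 20 counts in the tables together, 61.7% were higher in DoHH-2 and 17.4% had such an interval. These genes were not matched to the H2B mRNAs by counts, and an interval is wider where counts are few. The lowest H2B mRNA, H2BC15, held 1081 counts in DoHH-2 and 118 in GM01953. H2BC8 had the highest ratio, at 3547 CPM (counts scaled to a library of 1000000) in DoHH-2 against 1740 CPM in GM01953, a ratio of 2.04 (1.81 to 2.30). H2BC11 was close to it, at 3797 against 1968 CPM and a ratio of 1.93 (1.73 to 2.16). The intervals of these neighbours overlap. H2BC14 came next with 1.53 (1.38 to 1.71).
The ratios of H2BC3, H2BC4, H2BC5 and H2BC7 lay between 1.33 and 1.39, within each other's intervals. H2BC12 had a ratio of 1.18 (1.10 to 1.28). The ratio of H2BC13 was 1.10, with an interval from 0.988 to 1.22 that holds 1. H2BC15 alone was lower in DoHH-2, at 532 against 706 CPM and a ratio of 0.753 (0.622 to 0.919).
A share at least 2 times higher in DoHH-2 was seen for 1 H2B mRNA, H2BC8, and for 23.7% of the same coding genes. A share at least 2 times higher in GM01953 was seen for 0 of 10, against 14.2% of the coding genes. The median ratio was 1.36 over the H2B mRNAs and 1.13 over the 6990 coding genes with counts in both tables.

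**Figure D1:**
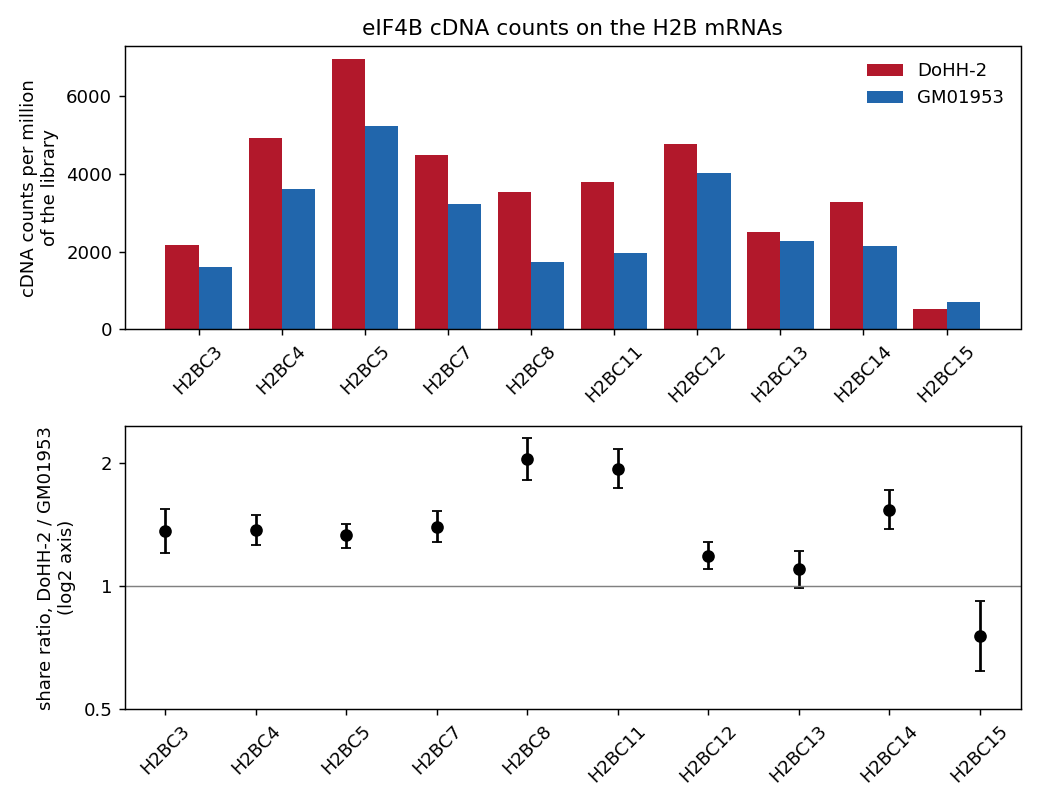
Upper plot, cDNA counts on each H2B mRNA in CPM, in DoHH-2 (red) and GM01953 (blue), 1 pooled value per cell line. Lower plot, ratio of the shares on a log2 axis with its 95% counting interval. The ratio was highest for H2BC8 (2.04) and H2BC11 (1.93), and below 1 for H2BC15 (0.753).

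To locate the counts, each mRNA was divided into 5 regions, the 5′ UTR, the start codon with 50 nt to each side, the interior CDS, the stop codon with 50 nt to each side, and the rest of the 3′ UTR. Since the 3′ UTRs are short, the stop codon region reached the stem–loop in every H2B mRNA. This region held 71.5% (71.2 to 71.9) of the H2B counts in DoHH-2 and 81.2% (80.0 to 82.3) in GM01953. The interior CDS held 16.7% (16.4 to 16.9) and 10.1% (9.27 to 11), and the start codon region 11.5% (11.3 to 11.7) and 8.41% (7.63 to 9.26). As a density, the stop codon region held 52425 counts per kb in DoHH-2, against 4560 in the interior CDS and 9320 around the start codon. In GM01953 the same densities were 3510, 163 and 402 counts per kb.

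All 10 H2B mRNAs had their highest density around the stop codon in both cell lines. Among coding genes with at least 20 counts, this was so for 13.6% in DoHH-2 and 15.6% in GM01953. Coding genes without the H2B mRNAs held 19.4% of their summed counts around the stop codon in DoHH-2 and 18.4% in GM01953. These sums include the other histone mRNAs. The median share around the stop codon was 2.86% over 7744 coding genes with at least 20 counts in DoHH-2. In GM01953 it was 0% over 1065 such genes. When each position was counted once, 3 of 10 mRNAs were densest there in DoHH-2 and 10 of 10 in GM01953. The summed shares around the stop codon were then 23.6% and 52.1%. Counted so, a region cannot hold more positions than it has bases, and 67.4% of the H2B exon bases had counts in DoHH-2. These values are not matched for the 12.2-fold difference in depth and cannot compare the cell lines.

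The H2B mRNAs varied among themselves, and more so in DoHH-2. H2BC12 had the highest share around the stop codon in DoHH-2, 79.8% (79.0 to 80.6). H2BC7 and H2BC13 followed, both close to 78%, with 78.0% (77.1 to 78.8) and 77.9% (76.8 to 79.0). H2BC5 held 75.1% (74.4 to 75.8) and H2BC4 74.4% (73.5 to 75.2).
The lowest shares were those of H2BC8, 54.5% (53.3 to 55.6), and H2BC11, 58.9% (57.8 to 60.0). The 2 mRNAs with the highest share ratios were thus those with the lowest part of their counts around the stop codon. In H2BC8 the other counts lay mainly in the interior CDS, with 32.4% of the mRNA. In H2BC11 they were spread evenly, with 20.7% in the interior CDS and 20.4% around the start codon.
H2BC3, H2BC14 and H2BC15 held between 67.3% and 69.5% around the stop codon. Counts in the 5′ UTR outside the start codon region were found in H2BC12 (93 in DoHH-2 and 5 in GM01953), H2BC15 (88 and 3) and H2BC3 (35 and 4), the 3 mRNAs whose 5′ UTR is longer than 50 nt.

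**Figure D2:**
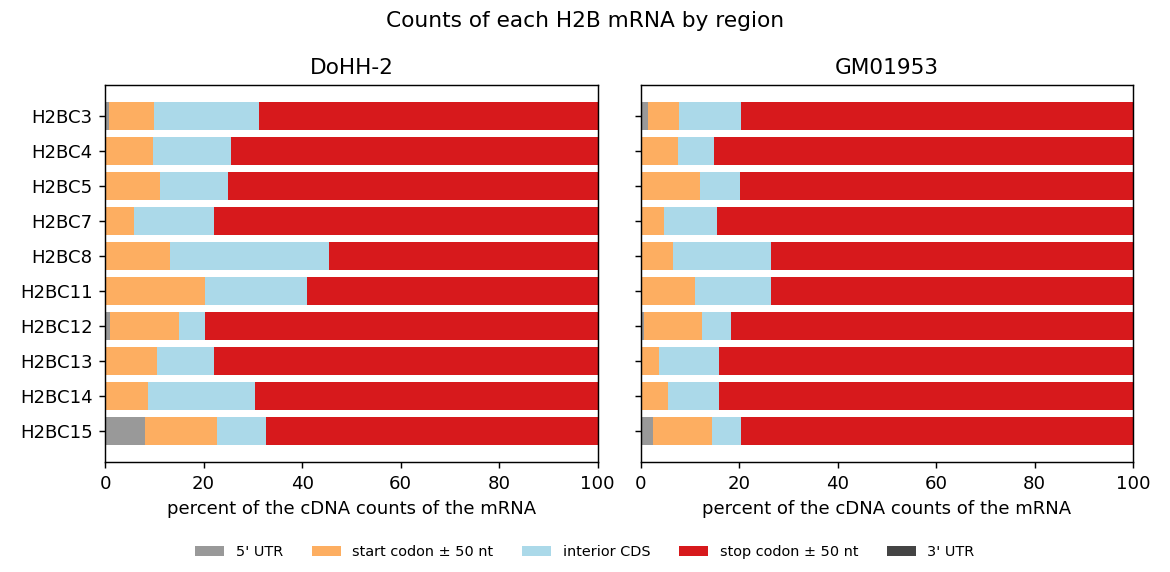
Percent of the cDNA counts of each H2B mRNA in 5 regions, in DoHH-2 (left) and GM01953 (right), with the stop codon region in red. This region held from 54.5% (H2BC8) to 79.8% (H2BC12) in DoHH-2 and from 73.5% (H2BC8) to 85.0% (H2BC4) in GM01953.

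In GM01953 the share around the stop codon was higher than in DoHH-2 for all 10 mRNAs, and for 9 the intervals did not overlap. Of 1021 coding genes with at least 20 counts in each table, the share was higher in GM01953 for 30.7%, and for 8.42% the intervals did not overlap. These genes were not matched to the H2B mRNAs by counts. The H2B mRNAs held 118 to 875 counts in GM01953. Over the 1065 coding genes with at least 20 counts there, the median share around the stop codon was 0%, which cannot be the higher one. The exception was H2BC12, at 79.8% (79.0 to 80.6) in DoHH-2 and 81.7% (78.6 to 84.4) in GM01953. The largest gap was that of H2BC8, with 54.5% in DoHH-2 and 73.5% (68.2 to 78.3) in GM01953. H2BC8 and H2BC11 also had the lowest shares in GM01953, 73.5% and 73.6%.
Read as a share of the library, the counts around the stop codon had a ratio of 1.23 between the cell lines (1.19 to 1.27). The ratio was 1.91 (1.72 to 2.12) around the start codon and 2.30 (2.09 to 2.53) in the interior CDS. By mRNA, the ratio outside the stop codon region exceeded the ratio inside it in 10 of 10. For H2BC8 the ratios were 3.51 (2.80 to 4.46) outside and 1.51 (1.31 to 1.74) inside. For H2BC14 they were 2.93 (2.26 to 3.89) and 1.27 (1.13 to 1.43), and for H2BC12 only 1.31 (1.09 to 1.58) and 1.16 (1.06 to 1.26).

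Within the stop codon region the counts stood between the last codons and the stem–loop. The 50 nt before the stem–loop held 61.1% (60.7 to 61.4) of the H2B counts in DoHH-2 and 75.1% (73.8 to 76.4) in GM01953, and the share was higher in GM01953 for all 10 mRNAs, with no overlap of intervals. With each position counted once, this stretch held 14.1% and 40.2% of the positions. Counted so, it can hold at most 50 positions per mRNA, whatever the depth. These values are not matched for the 12.2-fold difference in depth and cannot compare the cell lines. The share of counts in DoHH-2 was highest in H2BC12, at 70.9%, and H2BC7, at 70.8%, and lowest in H2BC8, at 38.4%. In GM01953 it ran from 59.3% (50.3 to 67.8) in H2BC15 to 80.9% (77.6 to 83.8) in H2BC4.
The highest position of H2BC5, 22 nt after the first base of the stop codon, held 949 counts in DoHH-2. The adjacent base, at 23 nt, was the highest in GM01953 with 106 counts. In H2BC4 the highest position also lay 22 nt after the first base of the stop codon, with 790 counts in DoHH-2 and 73 in GM01953. H2BC12, whose stem–loop starts at the same distance as in these mRNAs (39 nt), had its highest position at 21 nt, with 732 and 98 counts.
H2BC13, which has the shortest distance from stop codon to stem–loop, had its highest position at 6 nt, with 664 counts in DoHH-2 and 63 in GM01953. H2BC3 had 478 and 51 counts at 8 nt. H2BC15, with the longest distance, had its highest position at 32 nt, with 50 and 11 counts. Measured from the stem–loop, the highest position lay 12 to 37 nt upstream in DoHH-2, with a median of 18 nt, and 12 to 40 nt upstream in GM01953, with a median of 20.5 nt.
The position was the same in both cell lines in 7 mRNAs. The others were H2BC5, H2BC7 and H2BC14. In H2BC14 it lay at 24 nt in DoHH-2 and 7 nt in GM01953. In H2BC7 it lay at 13 nt and 5 nt, but the counts at these positions were close to a tie. DoHH-2 had 647 counts at 13 nt and 641 at 5 nt, and GM01953 had 67 and 70. Over the 100 positions before the stem–loop, the Pearson correlation of the counts of the cell lines ran from 0.708 (H2BC15) to 0.948 (H2BC4), as a description over positions that share sequence and base composition.

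**Figure D3:**
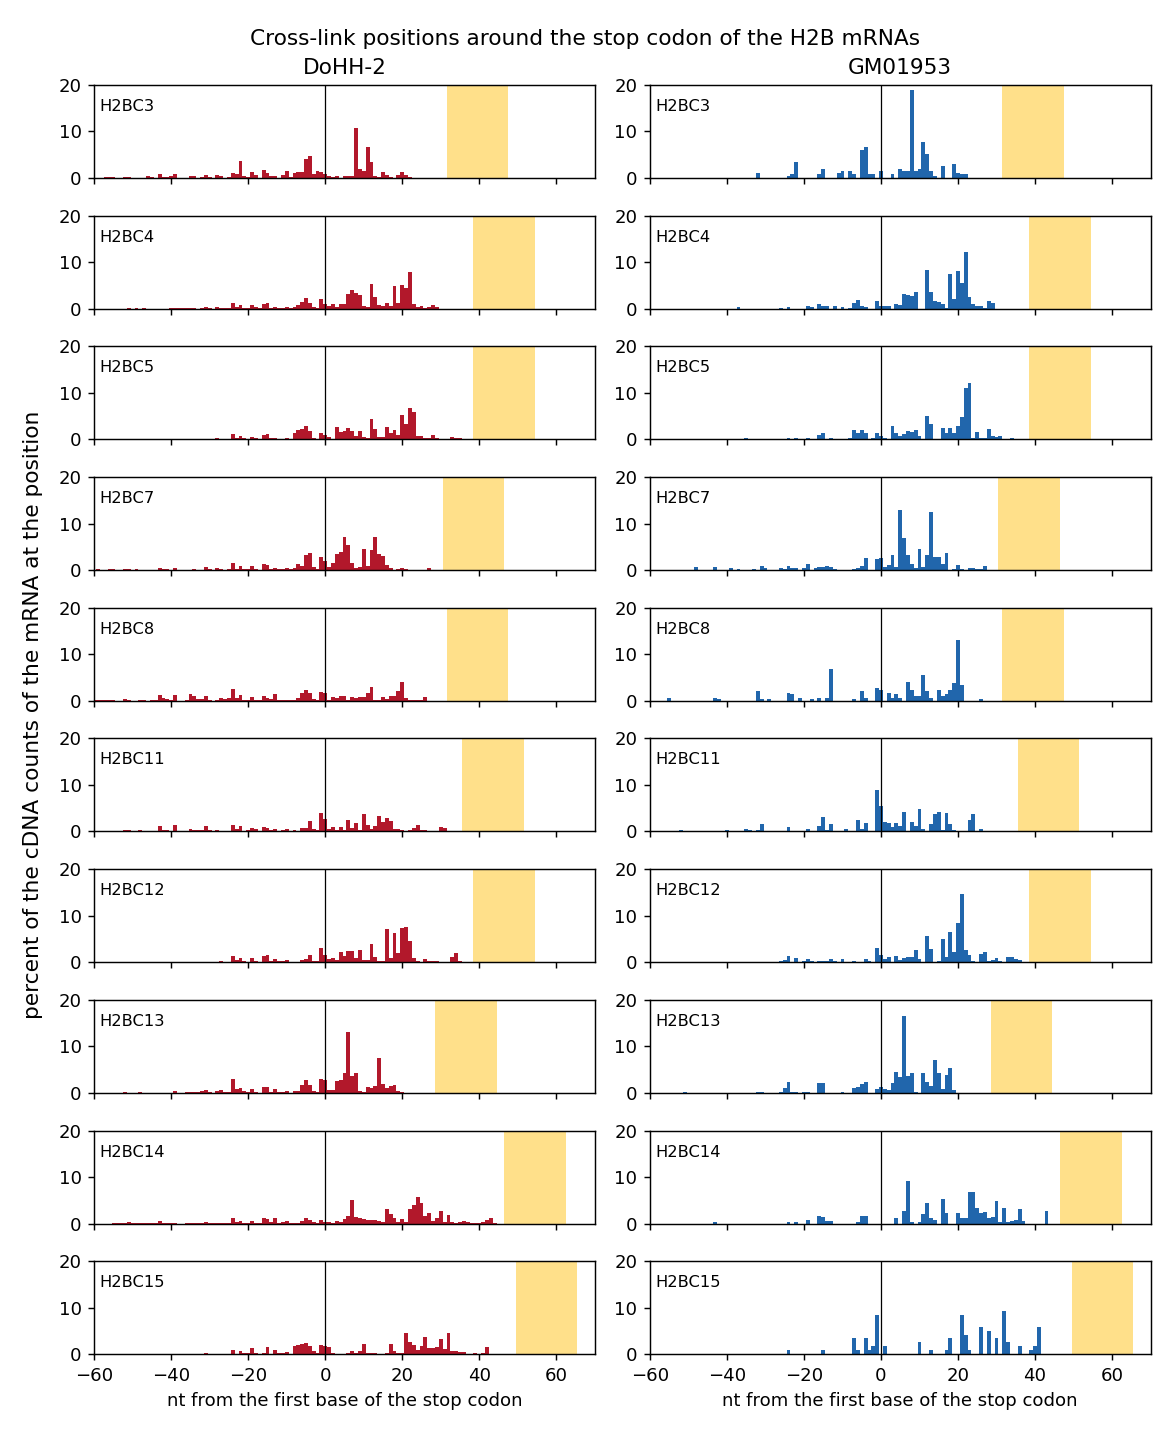
Percent of the cDNA counts of each H2B mRNA at each position from 60 nt before to 70 nt after the first base of the stop codon (black line), in DoHH-2 (left) and GM01953 (right), with the stem–loop shaded. The counts lay between the last codons and the stem–loop, and the highest position was 12 to 40 nt upstream of the stem–loop.

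The stem–loops themselves held 0 counts in both cell lines. A count of 0 of 75194 allows up to 3 counts. The sequence after the stem–loop held 2 counts in DoHH-2 and 0 in GM01953. The 10 nt before the stem–loop held 1242 counts (1.65%) in DoHH-2 and 101 (2.28%) in GM01953. A cDNA that started at the stem–loop would have at most 21 nt of mRNA left in 9 of the 10. The smallest read length kept is not given in the sources used here, so counts in the stem–loop may not have been measurable. Little more mRNA is left from the 10 nt before it, and whether this lowered the counts there was not tested.

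The ends of the reading frames can be compared base by base, as all 10 have 378 nt before the stop codon. The identity of these reading frames ran from 84.9% to 94.2% over 45 pairs. The last 27 nt and the stop codon of each mRNA are shown because most offsets in this stretch held counts in all 10 mRNAs in DoHH-2. Capitals mark the 5 bases with the highest counts in DoHH-2.
H2BC3 (chr6:26043277-26043306, minus strand): gcagtTaccaaGtacactagctCTaAataa
H2BC4 (chr6:26123524-26123553, minus strand): gccGtcaccaagtacaccagcTCCaaGtaa
H2BC5 (chr6:26158521-26158550, plus strand): gccgtcaccaagtacaccagTTCCaaGtaa
H2BC7 (chr6:26199910-26199939, plus strand): gccGtcaccaagtacaccagctCTaaGTaa
H2BC8 (chr6:26216263-26216292, minus strand): gctGtcaccaagtatacaagctCCaaGTaa
H2BC11 (chr6:27132370-27132399, minus strand): gccGtCaccaagtacaccagcgcTaaGTaa
H2BC12 (chr6:27146418-27146447, minus strand): gccgtcaccaaGTacaccagcgcTaaGTaa
H2BC13 (chr6:27807526-27807555, minus strand): gccGtcaccaagtacaccagcTCcaaGTaa
H2BC14 (chr6:27815395-27815424, plus strand): gccGtcaccaaGTaTaccagctCcaagtga
H2BC15 (chr6:27839013-27839042, plus strand): gccgtcaccaagtacaccagTTCCaaGtga
The base directly before the stop codon held 1665 counts summed over the mRNAs in DoHH-2, with 21 to 300 per mRNA, and 106 in GM01953. It is G in 9 mRNAs and A in H2BC3. The first base of the stop codon, T in all 10, held 1098 and 68 counts. Upstream, the bases 5 and 4 nt before the stop codon held 1661 and 1538 counts in DoHH-2, with 63 and 78 in GM01953. A further position, G in all 10 mRNAs, lay 24 nt before the stop codon and held 1127 and 38 counts. All 10 mRNAs had counts at each of these offsets in DoHH-2, as at every offset from 24 nt before the stop codon to its last base.
By base, T made up 15.98% of the reading frames and received 24.7% of their counts in DoHH-2 and 27% of those in GM01953. A made up 25.3% and received 9.36% and 9.78%. In the 3′ UTR before the stem–loop, T made up 21.8% of the bases and received 40.7% of their counts in DoHH-2 against 43.3% in GM01953, and A made up 30.2% and received 7.29% and 7.15%. G made up 27.9% of the reading frames and received 33.8% of their counts in DoHH-2 and 33.0% in GM01953. In the 3′ UTR before the stem–loop, G made up 14.2% and received 22.7% and 20.8%. Summed over the mRNAs, the cross-linked bases thus leaned to T and G and away from A in both cell lines and both stretches. By mRNA this held throughout for A, but not for T and G. In GM01953, G made up 26.5% of the H2BC3 reading frame and received 10.9% of its counts. T made up 15.9% of the H2BC4 reading frame and received 13.1% there.

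How reads that match several genes were treated is not given in the sources used here, and the H2B reading frames share stretches of sequence. A position was called unique when the 31 nt that follow it occurred once in the reference genome. By this measure, 74.3% of the H2B mRNA bases were unique, from 33.3% in H2BC12 to 97.8% in H2BC8, and all bases from the stop codon to the stem–loop were unique. The 31 nt were genomic, and in most mRNAs they ran past the annotated end for the last bases before the stem–loop. Unique positions held 96.1% of all H2B counts in DoHH-2 and 98.0% of those in GM01953.
In the interior CDS, unique bases held 6.36 counts per nt and the other bases 1.46 in DoHH-2. In GM01953 they held 0.234 and 0.0425. The share around the stop codon was highest in DoHH-2 in the least unique mRNA, H2BC12, and lowest in the most unique, H2BC8. Over the 10 mRNAs the Spearman correlation of unique bases with the share around the stop codon was -0.588 in DoHH-2 and -0.297 in GM01953, given as a description of 10 mRNAs that share sequence.
With unique positions only, the density around the stop codon was still above that of the interior CDS in 10 of 10 mRNAs in both cell lines. Summed over the mRNAs, the ratio of these densities fell from 11.5 to 9.28 in DoHH-2 and from 21.5 to 17.1 in GM01953. H2BC12 changed most, from 41.2 to 8.68 in DoHH-2, where 37 nt of its interior CDS were unique. H2BC8 was the lowest in DoHH-2 by either measure, with 4.48 over all and 4.49 over unique positions. In GM01953 it went from 9.85 to 9.62, and H2BC12 was the lowest at unique positions, with 7.54. The ratio of library shares at unique positions was 2.24 (2.03 to 2.48) in the interior CDS and 1.22 (1.18 to 1.26) around the stop codon.

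**Figure D4:**
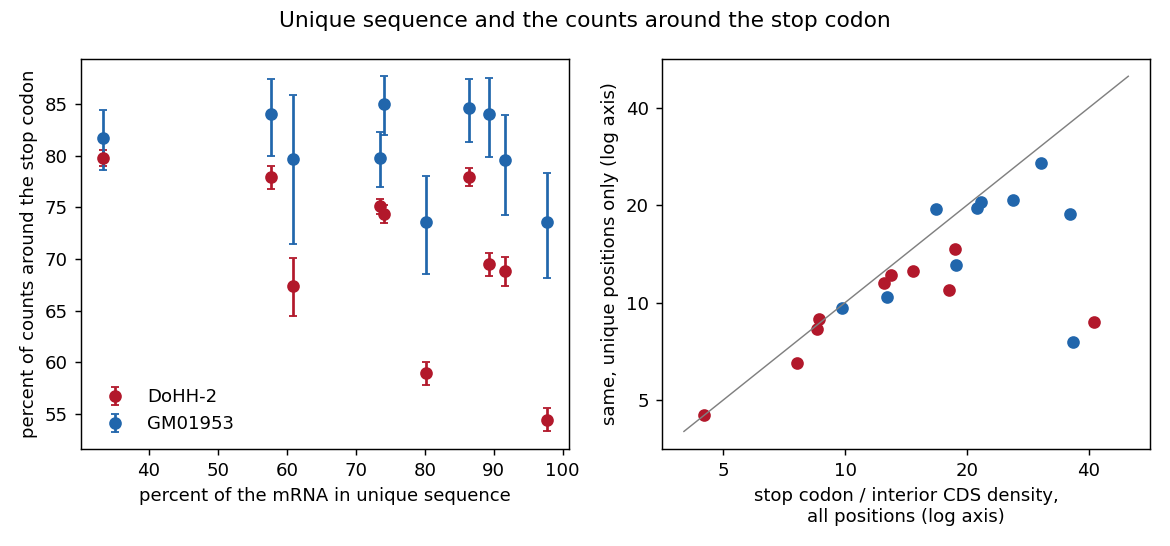
Left, percent of counts around the stop codon against the percent of the mRNA in unique sequence, with 95% Wilson intervals, in DoHH-2 (red) and GM01953 (blue). Right, ratio of the density around the stop codon to that of the interior CDS over all positions and over unique positions, on log axes with the line of equality. H2BC12 lies farthest below the line, with 41.2 over all and 8.68 over unique positions in DoHH-2.

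The deposited FDR, which marks positions whose surrounding count is high for the gene, covered the H2B mRNAs unevenly. An FDR below 0.05 was listed for 1734 of 3257 positions in DoHH-2, or 53.2% (51.5 to 54.9), and 397 of 769 in GM01953, or 51.6% (48.1 to 55.1). By mRNA it ran from 15.7% in H2BC3 to 91.9% in H2BC5 in DoHH-2, and from 20% in H2BC3 to 82.1% in H2BC4 in GM01953. The order did not follow the counts, as H2BC7, with 9142 counts, had 25.3%, and H2BC15, with 1081, had 60.4%.
In H2BC3, H2BC12 and H2BC14 the deposited table gave the gene no position past the stop codon. Their counts in the 3′ UTR, and some in the 5′ UTR, were listed without a gene, and every such position had an FDR of 1. This applied to 74.0% of the counts of H2BC12 in DoHH-2 and 80.1% in GM01953. In H2BC14 it applied to 55.9% and 76.5%, and in H2BC3 to 36.9% and 54.3%. The stretch with the highest counts of these mRNAs could therefore not pass the FDR. Over the 10 mRNAs, 18.8% (DoHH-2) and 22.8% (GM01953) of all counts had no gene.
H2BC15 showed the opposite, since the table listed 14450 counts in DoHH-2 and 860 in GM01953 for this gene, over a span of 27782 and 27207 nt. Of these, 7.48% and 13.7% lay inside the H2BC15 mRNA. H2BC5 was also listed over a long span, 13104 nt in DoHH-2, but all but a few of its listed counts (13537 of 13540) lay inside the mRNA.

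**Figure D5:**
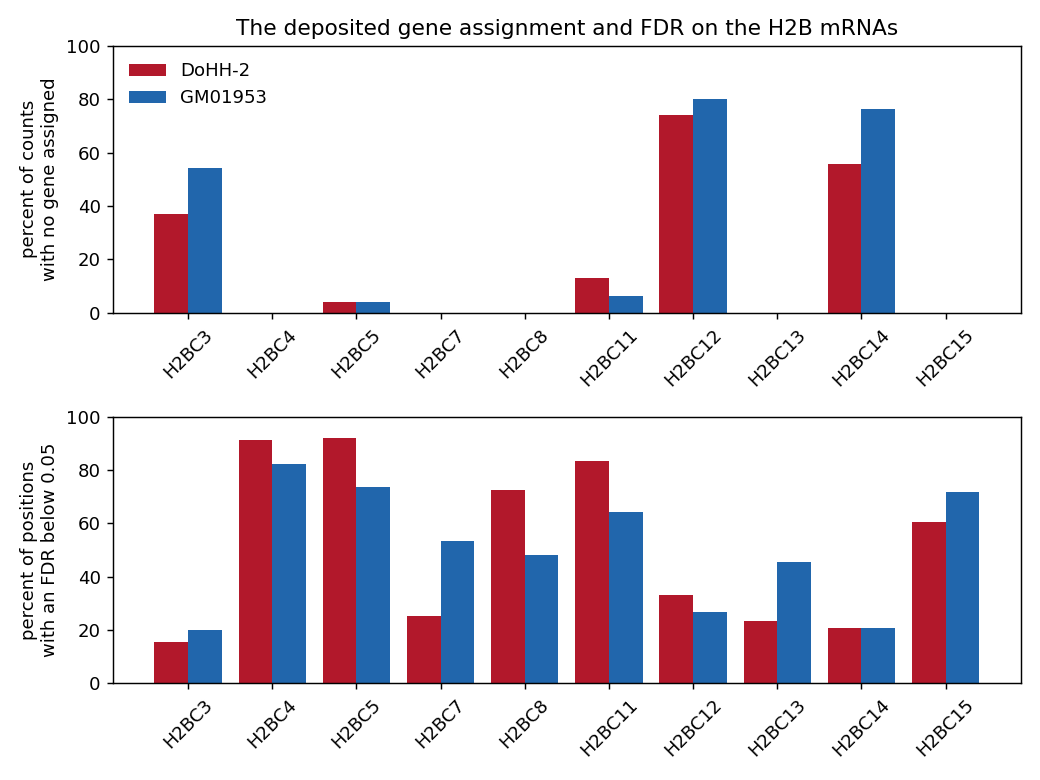
Percent of the counts of each H2B mRNA at positions with no gene assigned (upper) and percent of its positions with an FDR below 0.05 (lower), in DoHH-2 (red) and GM01953 (blue). H2BC12, H2BC14 and H2BC3 had the most counts without a gene, and the positions with an FDR below 0.05 ran from 15.7% (H2BC3) to 91.9% (H2BC5) in DoHH-2.

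The H2B mRNAs were set beside the other core histone mRNAs of chromosome 6. The 11 H2A mRNAs held 71.3% (70.9 to 71.6) of their counts around the stop codon in DoHH-2, and this interval overlaps that of H2B. The 10 H3 mRNAs held 58.3% (58.0 to 58.7) and the 11 H4 mRNAs 69.1% (68.8 to 69.4). In GM01953 the shares were 80.3% (79.1 to 81.4) for H2A, 64.9% (63.5 to 66.3) for H3 and 83.1% (82.2 to 84.0) for H4. The ratio of library shares was lowest for H2B, at 1.39, followed by H2A at 1.42 (1.38 to 1.46), whose intervals overlap, H3 at 1.52 (1.48 to 1.57) and H4 at 1.63 (1.59 to 1.67).
Among 2930 coding genes outside H2B with at least 100 counts in DoHH-2, the 5 whose division over the 5 regions was nearest to that of the summed H2B mRNAs were H4C4, H2AC6, H4C5, H4C8 and H4C11. Their Euclidean distances, between shares that sum to 1, ran from 0.0217 to 0.0444, and all 5 encode core histones.
The other H2B genes fell into distinct levels. H2BC10 held 7469 counts in DoHH-2 against 347 in GM01953, and H2BC17 held 3687 and 264, within the range of the mRNAs described above. The remaining 6 measured genes, H2BC1, H2BC6, H2BC9, H2BC18, H2BC21 and H2BC26, held 4 to 50 counts in DoHH-2 and 10 to 100 in GM01953. Their share was lower in DoHH-2, with intervals below 1 in 6 of 6. H2BC9, with 14 and 100 counts, had a ratio of 0.0115 (0.00608 to 0.0202). H2BS1 had no MANE Select transcript in the annotation and was not counted.
The mRNAs of factors that process histone mRNAs or take part in their turnover held few counts. Of 22 listed, 21 were measured (CASP8AP2 was not), with 20 to 402 counts in DoHH-2 and 0 to 41 in GM01953. The highest 3 in DoHH-2 were SLBP, with 402 counts, CPSF2, a subunit of the cleavage machinery, with 229, and UPF1 with 177. Their counts in GM01953 were 41, 9 and 15. At most 10.9% of the counts of such an mRNA lay around the stop codon in DoHH-2.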

How the data were processed

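DoHH-2 and GM01953 cells were profiled by iCLIP with an antibody to eIF4B. The counts of cDNAs at each cross-link position were deposited by the authors as whole numbers without normalization. They removed PCR duplicates with BBMap, demultiplexed with Je, trimmed the reads, used HISAT2 with GRCh38, merged the replicates of a cell line and called positions with iCount. The FDR deposited by the authors is a q-value per position from permutation of counts within the gene. Positions listed for several genes were counted once. Versions and the annotation release are not given in the sources used here, and the column of summed counts around each position was not used.

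Positions in the tables count from 0, so 1 was added. This was checked on the H2B reading frames, where the profiles of the plus-strand and minus-strand mRNAs correlated at 0.89 without a shift and at 0.444 or less when shifted by up to 4 nt. Exons came from MANE Select transcripts of GENCODE release 44, and uniqueness from words of 31 nt over the 3099750718 bases of the reference without alternative contigs. No density was computed for a region under 10 nt. Sums, Wilson intervals and exact conditional binomial intervals at 95% were computed with Python 3.11.15 and scipy 1.17.1. No test was possible with 1 pooled table per cell line. Region sums were tested on simulated data. Named genes were the 10 H2B mRNAs, listed H2B genes and histone mRNA factors (by count, with the highest 3), and the 5 mRNAs nearest in region shares. The members and lists were chosen with earlier results of these data known. Alternatives were other position filters, weights, regions, denominators and gene assignments.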

Additional observations from a re-analysis of the deposited data

Results flagged for a closer look

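Counts on the opposite strand and after the stem–loops were looked for, and values above the 3 counts that a count of 0 allows are given here. In DoHH-2, 4 counts lay on the strand opposite to the H2B exons, against 75194 on the sense strand. In the 100 nt after the stem–loops, 13 counts were found in DoHH-2, of which H2BC8 held 5 and H2BC13 held 3. They include the 2 counts between the stem–loops and the annotated mRNA ends given above. Both stretches held 0 counts in GM01953. A control library was not used here.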

How the results depend on the processing

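The ratio of library shares of the H2B mRNAs (1.39) kept its direction under all alternatives but 1. It was 0.282 when each position was counted once, a measure not matched for the 12.2-fold difference in depth. That measure would have stayed below 1 even with all 4831 H2B exon bases covered in DoHH-2, so it cannot show a direction. The ratio was 1.92 with positions of an FDR below 0.05, 1.49 without the highest position of each mRNA and 1.47 with the authors' assignment. It was 1.25 as a share of counts in coding exons and 1.5 as a share of counts outside histone mRNAs. The share around the stop codon was 77.3% in DoHH-2 and 89.7% in GM01953 with an FDR below 0.05, 23.6% and 52.1% with each position counted once, 69.4% and 78.4% without the highest positions, and 65.3% and 75.5% with codon regions of 25 nt. In DoHH-2 it was also 73.0% at unique positions, 70.2% with the authors' assignment and 71.9% as the median. The number of mRNAs densest around the stop codon was 3 in DoHH-2 with each position counted once. All values with each position counted once are limited by the bases of a region and are not matched for depth. The share in the 50 nt before the stem–loop was, in DoHH-2 and GM01953, 63.7% and 82.2% with an FDR below 0.05, 63.6% and 76.7% at unique positions, 14.1% and 40.2% with each position counted once, 58.2% and 71.4% without the highest positions, 57.4% and 72.2% with the authors' assignment, and 40.8% and 57.0% in a window of 30 nt. In DoHH-2, 50.6% of positions had an FDR below 0.01, and 55.4% of unique positions one below 0.05. Chosen after seeing the data, the density ratio at unique positions was 9.28 and 17.1, and 2 mRNAs had a share at least 2 times higher in DoHH-2 without the highest positions. No paired analysis was possible because the replicates are pooled, and no replicate could be left out. The 4435 counts of GM01953 limit its single positions most.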
